A study of Homo sapiens with 12 samples.

Results

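The genes of the ERBB receptors and their EGF-type ligands are described here in SH-SY5Y cells that met hydrogen peroxide (H2O2) during or before neuronal differentiation. The family was taken as 10 of the 55765 gene symbols counted, 6 ligands (HBEGF, AREG, EREG, TGFA, NRG1 and NRG2) and the receptors EGFR, ERBB2, ERBB3 and ERBB4. It was chosen by the counts of 1 member, HBEGF, the gene of heparin-binding EGF-like growth factor, which were higher with H2O2 in both experiments. The values of HBEGF are therefore given as a description without a test, and tests are given for the other 9 genes.

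SH-SY5Y is a single human neuroblastoma line, subcloned from the bone marrow-derived line SK-N-SH, and all cultures received 10 µM all-trans retinoic acid (ATRA) for 7 days to make them neuron-like. In the co-treatment experiment, 3 cultures were given H2O2 together with ATRA over the 7 days and 3 controls were given ATRA alone. For pre-treatment, 3 further cultures had 72 h of H2O2 first and ATRA afterwards, and their 3 controls had no H2O2. The H2O2 dose is 10 mM in the description deposited with the data and 10 µM in the methods of the study. Levels are given as CPM, the counts of a gene relative to all gene counts of the library after TMM scaling, and changes as log2 fold changes (log2FC) of H2O2 over control with their standard error (SE).

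ERBB receptors are tyrosine kinases of the cell surface that pair when a ligand binds. HBEGF, amphiregulin (AREG), epiregulin (EREG) and TGFA bind EGFR, with HBEGF and EREG also binding ERBB4, while the neuregulins NRG1 and NRG2 bind ERBB3 and ERBB4. ERBB2 has no known ligand of its own and serves as a partner, and ERBB3 has little kinase activity of its own. The ligands are made as membrane-bound precursors that ADAM proteases cut free, and the receptors signal to RAS and ERK through adaptors such as GRB2 and SOS1 and to AKT through PI3-kinase. In the nervous system, neuregulin signalling is known for its part in neuronal migration, myelination and synapse formation.

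Promoters of 8 of the 10 genes were matched in RefSeq on GRCh38.p14, as windows of 300 bases from 250 before to 50 after the gene's start. Promoters of HBEGF (chr5:140346554-140346853, minus strand), the ligand that was higher, AREG (chr4:74444886-74445185, plus strand), a ligand without counted reads, and EGFR (chr7:55018767-55019066, plus strand), the receptor that binds both, are shown 5′ to 3′ on the strand of the gene. Capitals mark 3 motifs, on either strand. The GC box is spelled GGGCGG, the cAMP response element (CRE) is spelled TGACGTCA, and the element of the TATA box is spelled TATAAA.
HBEGF: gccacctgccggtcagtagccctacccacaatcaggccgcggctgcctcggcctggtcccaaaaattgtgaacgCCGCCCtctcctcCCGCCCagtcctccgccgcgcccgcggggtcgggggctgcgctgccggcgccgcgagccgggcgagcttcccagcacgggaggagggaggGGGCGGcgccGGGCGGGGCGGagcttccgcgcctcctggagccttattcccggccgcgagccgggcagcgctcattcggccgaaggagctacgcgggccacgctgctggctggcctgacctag
AREG: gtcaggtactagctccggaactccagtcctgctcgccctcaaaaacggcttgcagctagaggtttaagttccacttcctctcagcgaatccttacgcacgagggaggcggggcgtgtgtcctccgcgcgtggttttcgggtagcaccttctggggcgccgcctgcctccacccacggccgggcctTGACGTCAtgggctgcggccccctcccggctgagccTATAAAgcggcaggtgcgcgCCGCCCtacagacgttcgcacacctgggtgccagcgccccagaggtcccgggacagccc
EGFR: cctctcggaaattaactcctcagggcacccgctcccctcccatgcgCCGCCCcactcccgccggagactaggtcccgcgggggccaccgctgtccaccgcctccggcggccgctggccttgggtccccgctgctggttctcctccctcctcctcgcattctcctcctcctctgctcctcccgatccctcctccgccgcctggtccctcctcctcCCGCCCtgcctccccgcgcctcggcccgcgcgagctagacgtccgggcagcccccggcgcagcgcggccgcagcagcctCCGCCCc
The HBEGF window was 75.0% G and C and held 5 GC boxes, 2 of which overlap by 1 base, and neither a TATA box nor a CRE. The AREG window held 1 CRE, 1 TATA box and 1 GC box, and the EGFR window held 3 GC boxes and no TATA box. Among all 35116 RefSeq promoters of this length, 45.0% held a GC box, 11.5% a TATA box and 1.85% a CRE. The AP-1 motif TGANTCA (7.71% of promoters) and the ETS core CCGGAAG (10.3%) were found in none of the 3 windows. Promoter activity was not measured in these cultures, and a match is a description of the letters alone.

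Between 27576276 and 98287391 reads were counted on genes per library. In the pre-treatment experiment, control replicate 3 and control replicates 1 and 2 were unlike each other. Small-RNA genes took 17.6% of counts in replicate 3, 1.58% and 2.88% in replicates 1 and 2, and 13.3% to 15.1% in treated libraries. Replicate 3 had 0.200 reads outside genes per gene read, against 0.800 and 0.830 in replicates 1 and 2 and 0.343 to 0.462 in treated libraries. The co-treatment libraries had 5.04% to 13.0% and 0.263 to 0.429. Of all libraries, control replicates 1 and 2 had the lowest small-RNA shares and the most reads outside genes, and replicate 3 lay at the opposite end of both. The clustering of the study shows the 5 libraries without replicate 3, so each pre-treatment result is given over these 5 libraries and over all 6. The results over 5 libraries rest on control replicates 1 and 2. Noradrenergic neuroblast markers (9 genes, with TH at no more than 0.258 CPM) summed to between 2690 and 4036 CPM in every library. Markers of Schwann cells (7 genes) summed to 5.33 to 8.35 CPM and those of blood and endothelial cells (4 genes found in the files) to 0.213 to 1.54 CPM, with the Schwann markers PMP2 and CDH19 and the blood and endothelial markers CD68 and CDH5 at 10 reads or fewer in each library.

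HBEGF, which lies on chromosome 5 (139712428 to 139726188 on hg19, minus strand), was 2.36 times higher with H2O2 during differentiation and 2.77 times higher with H2O2 before it over 5 libraries. In the co-treatment experiment, it had 6.28, 4.66 and 4.31 CPM in the controls and 12.5, 11.3 and 12.2 CPM in the treated cultures. For pre-treatment, HBEGF had 4.59, 4.09 and 6.08 CPM in its controls and 14.1, 12.7 and 8.55 CPM in the treated cultures. Every treated library was above every control of its experiment, and the lowest, treated replicate 3 of the pre-treatment experiment, was also the closest to its controls. The log2FC was 1.24 (SE 0.18) after co-treatment, 1.47 (SE 0.25) after pre-treatment over 5 libraries and 1.26 (SE 0.27) over 6. The groups of controls had like means, 5.09 ± 1.05 CPM (SD, n = 3) and 4.92 ± 1.03 CPM (SD, n = 3), as had the treated groups, 12 ± 0.609 CPM (SD, n = 3) and 11.8 ± 2.90 CPM (SD, n = 3). The co-treatment groups and the pre-treatment groups are separate cultures, and the log2FC of the experiments differed by 0.17 (SE 0.30) over 11 libraries. As RNA was taken from whole cultures, fewer cells of a kind and less RNA per cell cannot be told apart, here and below.

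**Figure D1:**
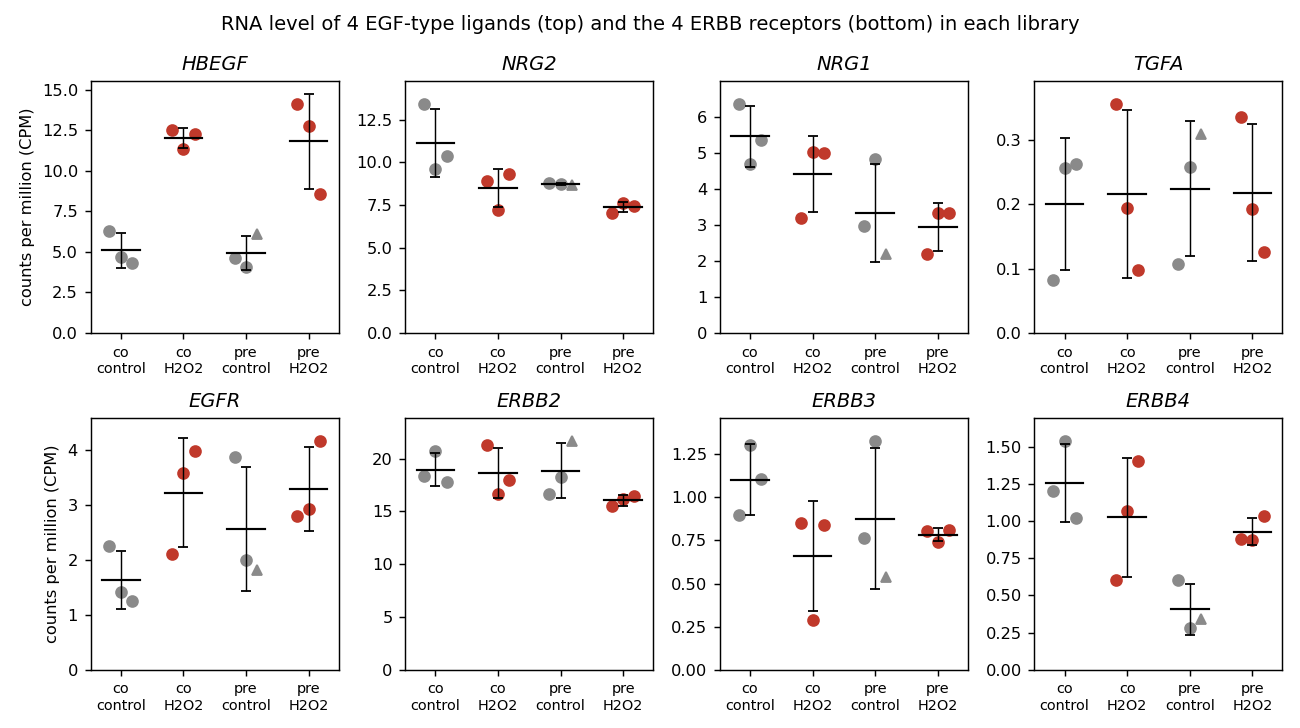
CPM (vertical axis, from 0) of 4 ligands (top) and the 4 receptors (bottom) in the 3 libraries of each group, with control in grey, H2O2 in red, the mean as a black line and the SD as a bar; the triangle is pre-treatment control replicate 3. HBEGF in all 6 treated libraries (8.55 to 14.1 CPM) was above all 6 controls (4.09 to 6.28 CPM), while NRG1, TGFA and EGFR overlapped between control and H2O2 in both experiments.

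Of the other 9 members, 7 had enough reads to be tested, and none passed an adjusted p of 0.05 with H2O2 in edgeR's quasi-likelihood test in either experiment. The share of all tested genes that passed was 0.598% after co-treatment, 26.1% after pre-treatment over 5 libraries and 0.0242% over 6. In the co-treatment experiment, the median log2FC of the 7 was -0.27, against 0.00 over all genes, and in the pre-treatment experiment it was -0.09 against 0.01 over 5 libraries and -0.15 against -0.01 over 6. With library size as the only scaling, the median over all genes was -0.21 over 5 pre-treatment libraries, so the changes given here are relative to the TMM scaling. At an unadjusted p of 0.05, 1 of the 7 passed after co-treatment (EGFR) and 1 after pre-treatment over 5 as over 6 libraries (ERBB4), where 8.15%, 40.5% and 11.2% of all genes did.

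Among the ligands, NRG2 (chromosome 5, 139226364 to 139422884, minus strand), a neuregulin, had 13.4, 9.63 and 10.4 CPM in the co-treatment controls and 8.92, 7.21 and 9.30 CPM in treated cultures. NRG2 had 8.78, 8.72 and 8.67 CPM in the pre-treatment controls and 7.03, 7.61 and 7.46 CPM in treated cultures. The treated libraries lay below the controls without overlap in both experiments, by a smaller amount than HBEGF lay above them. The log2FC was -0.40 (SE 0.18, adjusted p = 0.613 in edgeR's quasi-likelihood test) after co-treatment, and -0.22 (SE 0.17, adjusted p = 0.344) and -0.24 (SE 0.18, adjusted p = 0.640) after pre-treatment over 5 and 6 libraries, so NRG2 was not called in any of the 3. The exons of NRG2 share 234 bases with a long noncoding RNA on the other strand, and the strand setting of the counting is not stated.

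NRG1 (chromosome 8, 31496738 to 32713184), the neuregulin best known in the developing nervous system, had 6.36, 4.68 and 5.36 CPM in the co-treatment controls and 3.2, 5.03 and 5.0 CPM in treated cultures. It had 2.98, 4.84 and 2.20 CPM in the pre-treatment controls and 2.18, 3.33 and 3.35 CPM in treated cultures. The groups overlapped in both experiments, and the log2FC of -0.30 (SE 0.23, adjusted p = 0.832 in edgeR's quasi-likelihood test), -0.38 (SE 0.29, adjusted p = 0.366, 5 libraries) and -0.18 (SE 0.35, adjusted p = 0.862, 6 libraries) was within about the spread of the replicates. TGFA, transforming growth factor alpha, stood at 0.0816 to 0.355 CPM, or 4 to 32 reads, in the 12 libraries. Its log2FC of 0.06 (SE 0.71) after co-treatment had a 95% interval from -1.48 to 1.60, so a change of the size that HBEGF had was not detectable at this depth.

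AREG had 0 reads in all 12 libraries and EREG 1 read in all, in treated replicate 3 of the pre-treatment experiment. A count of 0 allows up to 3 reads, which is 0.0305 to 0.109 CPM depending on the library, and this limit covers counting error only. For AREG the 0 cannot be read as absence. Of 138 windows of 50 bases along its exons on hg19, 134 (97.1%) have an identical second copy on chromosome 4, between 75480629 and 75490425, and reads that map to more than 1 place are set aside by the counting. The symbol AREGB, which was listed for that copy, also had 0 reads. For EREG, 5 of 550 windows had a second copy on chromosome 4, and other chromosomes and the reverse strand were not searched.

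Per length, HBEGF, NRG2 and ERBB2 were the most abundant members in every group, well above the rest. In the co-treatment controls, NRG2 came first with 2.42 ± 0.437 CPM per kilobase of annotated exon, above ERBB2 with 1.83 ± 0.152 without overlap, and HBEGF had 1.70 ± 0.351 (SD, n = 3). In the pre-treatment controls, NRG2 had 1.90 ± 0.0126, ERBB2 1.83 ± 0.252 and HBEGF 1.65 ± 0.345 CPM per kilobase (SD, n = 3), and all 3 overlapped. In the treated cultures, HBEGF came first, with 4.02 ± 0.204 CPM per kilobase after co-treatment and 3.95 ± 0.970 after pre-treatment (SD, n = 3), without overlap with NRG2 or ERBB2, which overlapped each other. Over all 12 libraries, which pools the groups, the next were NRG1 at 0.189 ± 0.0627 and EGFR at 0.168 ± 0.0643 CPM per kilobase, then ERBB3 at 0.0731 ± 0.0249, ERBB4 at 0.0694 ± 0.0301 and TGFA at 0.0436 ± 0.0195 CPM per kilobase (SD, n = 12). NRG1 lay above EGFR without overlap in the co-treatment controls and below it in the pre-treated cultures, and the pair overlapped in the other 2 groups. ERBB3 and ERBB4 overlapped in every group, and TGFA lay below both without overlap in the co-treatment controls alone. With the length of the canonical transcript in place of all exons, an alternative chosen after the values were seen, ERBB2 came first in the controls, with 4.15 and 4.14 CPM per kilobase in the co-treatment and pre-treatment groups, before NRG2 with 2.84 and 2.23 and HBEGF with 2.16 and 2.09. In the treated cultures HBEGF came first by that length too, with 5.10 and 5.01, before ERBB2 with 4.09 and 3.52 CPM per kilobase.

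**Figure D2:**
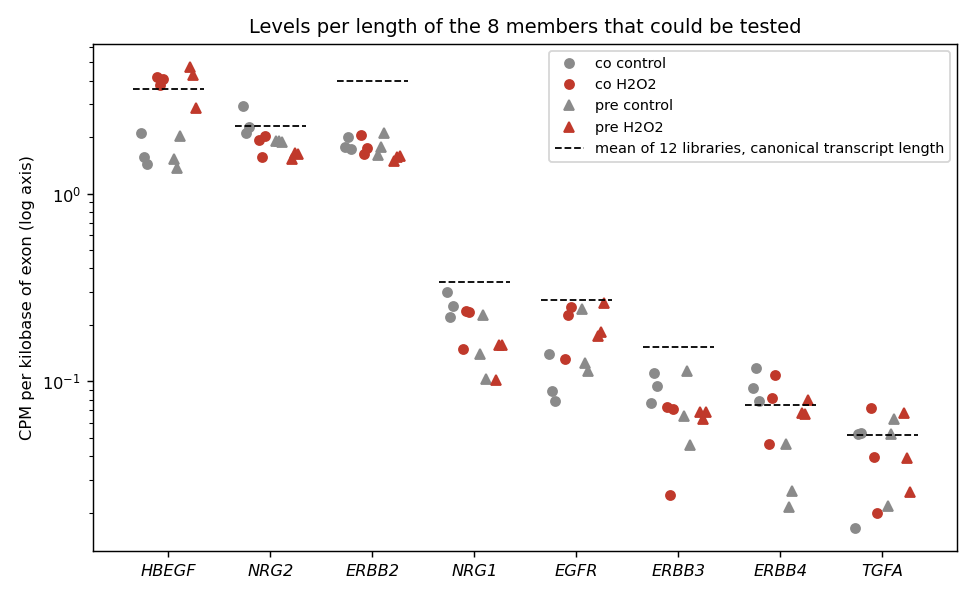
CPM per kilobase of exon (log axis) of the 8 members that were tested or described, in order of their mean, with circles for co-treatment, triangles for pre-treatment, grey for control and red for H2O2; dashed lines are means of the 12 libraries with the canonical transcript length. HBEGF, NRG2 and ERBB2 lie above 1 CPM per kilobase in each library and all others below 1, and the dashed line of ERBB2 (3.97) lies above that of HBEGF (3.59), for which control and treated cultures are pooled.

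The make-up of the ligand RNA followed from these levels. HBEGF made up 36.0% to 39.8% of the summed per-length level of the 6 ligands in the co-treatment controls and 64.3% to 67.3% in the treated cultures. It made up 38.6% to 49.8% in the pre-treatment controls and 61.3% to 73.5% in the treated cultures. NRG2, which led in every control but 1, held 53.3% to 56.3% in the co-treatment controls and 27.8% to 31.7% in treated cultures. In the pre-treatment experiment, NRG2 held 46.1% to 53.5% in the controls and 23.8% to 34.8% in treated cultures. HBEGF thus led in each treated library among the ligands with counted reads, with AREG, whose level is unknown, at 0 in these sums. These shares hold the measure by which HBEGF was chosen, and are given with no test.

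Among the receptors, ERBB2 (chromosome 17, 37844167 to 37886679), the partner without a ligand, was by far the most abundant, at 79.5% to 91.9% of the summed per-length level of the 4 receptors in the 12 libraries. It had 18.3, 20.7 and 17.7 CPM in the co-treatment controls and 21.2, 16.7 and 18 CPM in treated cultures. It had 16.6, 18.3 and 21.7 CPM in the pre-treatment controls and 15.5, 16.2 and 16.4 CPM in treated cultures. The co-treatment groups overlapped, whereas the pre-treated libraries lay just below their controls. The log2FC was -0.02 (95% interval -0.34 to 0.29, adjusted p = 0.990 in edgeR's quasi-likelihood test) after co-treatment and -0.09 (95% interval -0.42 to 0.23, adjusted p = 0.654) after pre-treatment over 5 libraries, an interval that leaves out a change as large as that of HBEGF. The log2FC over 6 pre-treatment libraries was -0.23 (SE 0.17, adjusted p = 0.640). The exons of ERBB2 share 571 bases with MIEN1 and 144 with PGAP3 on the other strand.

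EGFR (chromosome 7, 55086710 to 55279321), the receptor of HBEGF, had 2.24, 1.41 and 1.25 CPM in the co-treatment controls and 2.1, 3.58 and 3.97 CPM in treated cultures. Treated replicate 1 lay within the range of the controls and the other 2 treated libraries above it. The log2FC was 0.98 (SE 0.31), with an unadjusted p of 0.00881 and an adjusted p = 0.333 in edgeR's quasi-likelihood test, so EGFR was not called. EGFR had 3.87, 1.99 and 1.82 CPM in the pre-treatment controls and 2.79, 2.92 and 4.17 CPM in treated cultures, with control replicate 1 above 2 of the treated libraries. The log2FC was 0.19 (SE 0.33, adjusted p = 0.701) over 5 libraries (-0.031 when scaled by library size alone) and 0.36 (SE 0.36, adjusted p = 0.721) over 6. The interaction term over 11 libraries, which tests whether the experiments differ in their change, was -0.84 (SE 0.48, adjusted p = 0.265), and it was -0.21 without pre-treatment control replicate 1 and -1.17 without control replicate 2. The exons of EGFR share 186 bases with EGFR-AS1 on the other strand.

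ERBB4 (chromosome 2, 212240442 to 213403565, minus strand), the neuregulin receptor with a kinase of its own, was the member whose level differed most between the control groups. It had 1.2, 1.54 and 1.02 CPM in the co-treatment controls and 0.604, 1.07 and 1.40 CPM in treated cultures, with groups that overlapped. In the pre-treatment experiment, it had 0.603, 0.279 and 0.339 CPM in the controls and 0.878, 0.873 and 1.04 CPM in treated cultures, which lay above the controls without overlap. The log2FC was -0.27 (SE 0.36, adjusted p = 0.921 in edgeR's quasi-likelihood test) after co-treatment, 1.08 (SE 0.41, adjusted p = 0.0828) after pre-treatment over 5 libraries and 1.18 (SE 0.42, adjusted p = 0.360) over 6. The interaction was 1.30 (SE 0.56, adjusted p = 0.144), so a difference between the experiments was not called either. None of the 7 tested members passed the interaction test, which 8.02% of all genes passed.

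Between cultures given ATRA alone, ERBB4 was lower in the pre-treatment controls (replicates 1 and 2) than in the 3 co-treatment controls, with a log2FC of -1.48 (SE 0.45, adjusted p = 0.0465 in edgeR's quasi-likelihood test). It was 1 of 7 tested members that passed, where 19.8% of all genes passed, and 8.55% passed as lower. The call was close to the threshold and was lost with pre-treatment control replicate 3 added (log2FC -1.59, adjusted p = 0.692) and on leaving out any library but co-treatment control replicate 1, with adjusted p-values from 0.0719 to 0.235. The pre-treatment log2FC of ERBB4 rests on the same low controls. Without pre-treatment control replicate 1, ERBB4 passed over the remaining 4 libraries (log2FC 1.78, adjusted p = 0.0484), leaving control replicate 2, with 13 reads on ERBB4, as the lone control. Experiment and the time in culture cannot be told apart in this comparison. EGFR was higher in the pre-treatment controls by 0.85 on the log2 scale (SE 0.37, adjusted p = 0.123), which did not pass, though it did without co-treatment control replicate 1 (log2FC 1.15, adjusted p = 0.0370), and it was 0.28 without pre-treatment control replicate 1.

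ERBB3 (chromosome 12, 56470583 to 56497289), the neuregulin receptor with little kinase activity, had 0.897, 1.30 and 1.11 CPM in the co-treatment controls and 0.853, 0.290 and 0.837 CPM in treated cultures. All 3 treated libraries lay below the controls, replicate 2 the furthest. The log2FC was -0.77 (SE 0.44, adjusted p = 0.738 in edgeR's quasi-likelihood test), and -0.38 without that replicate. In the pre-treatment experiment, ERBB3 had 0.763, 1.33 and 0.540 CPM in the controls and 0.804, 0.740 and 0.808 CPM in treated cultures, with a log2FC of -0.38 (SE 0.34, adjusted p = 0.438) over 5 libraries and -0.15 (SE 0.42, adjusted p = 0.903) over 6.

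Counted over the 7 tested members, 2 (NRG2 and ERBB3) lay wholly below the controls after co-treatment, where 7.31% of all genes did, and 0 lay wholly above, where 6.66% did. After pre-treatment, over 5 as over 6 libraries, NRG2 and ERBB2 lay wholly below and ERBB4 wholly above. Over 5 libraries 29.9% of all genes lay below and 27.9% above, and over 6 libraries 7.93% and 8.45%.

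**Figure D3:**
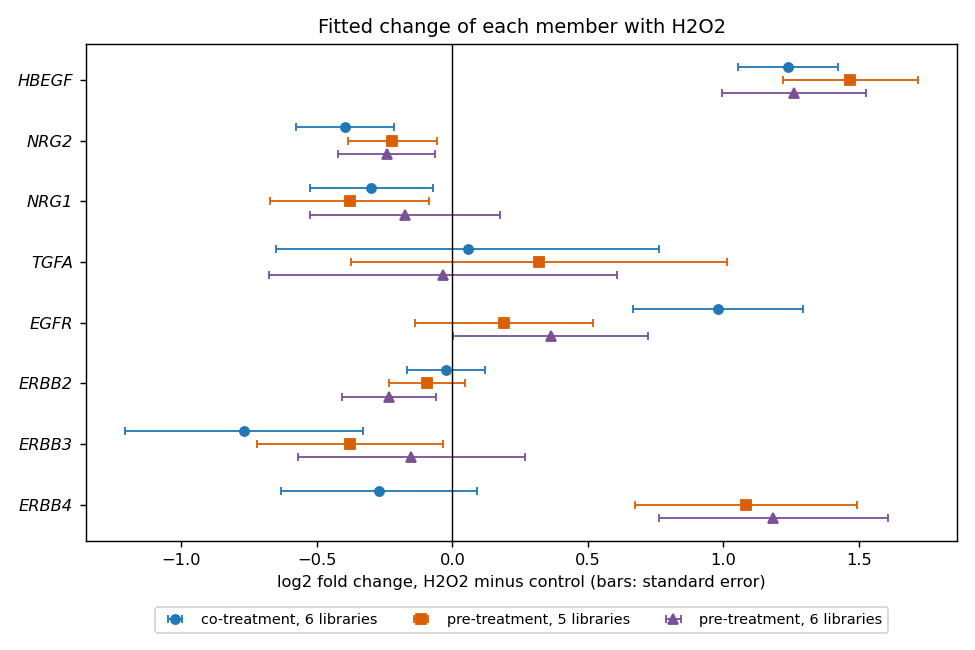
Log2FC of H2O2 over control (horizontal axis) with its standard error for the 8 members with enough reads, after co-treatment (circles), after pre-treatment over 5 libraries (squares) and over 6 (triangles). HBEGF lies at 1.24 to 1.47 in all 3 comparisons, EGFR lies at 0.98 after co-treatment and 0.19 and 0.36 after pre-treatment, ERBB4 lies at -0.27 and then 1.08 and 1.18, and no difference between the experiments passed its test. The 5-library and 6-library comparisons share libraries.

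Over the 12 libraries, the gene whose log2 CPM varied most like that of HBEGF, among 15785 genes with a mean of at least 1 CPM, was DRAM1 (r = 0.981), a lysosomal membrane protein gene known as a p53 target. DRAM1 had 1.61 ± 0.532 and 1.81 ± 0.552 CPM in the co-treatment and pre-treatment controls and 6.18 ± 0.823 and 6.03 ± 1.68 CPM in the treated cultures (SD, n = 3 in each). Like HBEGF, it was lowest among treated libraries in pre-treatment replicate 3, with 4.09 CPM. Among the next were RAB31, a small GTPase of vesicle traffic (r = 0.940), LIF, a cytokine of the interleukin-6 family (r = 0.934), and MATN2, a matrix protein (r = 0.931). LIF had 0.647 ± 0.240 and 0.770 ± 0.207 CPM in the controls and 2.23 ± 0.625 and 1.93 ± 0.765 CPM in the treated cultures (SD, n = 3 in each). These correlations are a description over libraries that share the split into control and treated cultures, and the genes were picked for them. Of the other members, EGFR had the highest correlation with HBEGF (r = 0.54) and NRG2 the lowest (r = -0.51).

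Of the mesenchymal markers (8 genes), VIM, which codes for the filament protein vimentin, was higher with H2O2 in both experiments, as HBEGF was. The log2FC of VIM differed between the experiments by 1.44 over 11 libraries (adjusted p = 0.0157 in edgeR's quasi-likelihood test). With pre-treatment control replicate 3 added, the difference was 1.24 and was not called (adjusted p = 0.381). It was 1.33, also not called, without pre-treatment control replicate 1, which leaves a lone control. The same difference for HBEGF, which has no test, was 0.17. VIM had 9.85, 5.78 and 6.18 CPM in the co-treatment controls and 15.5, 15.3 and 17.8 CPM in treated cultures (log2FC 1.16, adjusted p = 0.0272 in edgeR's quasi-likelihood test). It had 3.00, 3.97 and 5.06 CPM in the pre-treatment controls and 23.0, 19.6 and 21.9 CPM in treated cultures, and passed over 5 libraries (log2FC 2.66, adjusted p = 0.000718) and over 6 (log2FC 2.42, adjusted p = 0.0442). The co-treatment call of VIM was lost on leaving out any library but control replicate 1 (adjusted p-values from 0.0664 to 0.205) and with library size alone (0.0625), and that over 6 pre-treatment libraries on leaving out any but control replicate 3 (0.178 to 0.408) and with limma-voom (0.0797). Of the 8 markers, 6 were tested after co-treatment and 1 rose (VIM), where 0.598% of all genes passed. Over 5 pre-treatment libraries 7 were tested, of which 3 rose (VIM, CD44 and YAP1) and 1 fell (TNC), where 13.2% and 12.8% of all genes did. Of these 4, VIM alone was called on leaving out each library in turn. The summed level of the list did not follow HBEGF in the pre-treatment experiment, with 111 to 246 CPM in the controls and 124 to 171 CPM in treated cultures, and it was 79.5 to 188 and 170 to 186 CPM in the co-treatment groups. FN1, the gene of fibronectin, made up most of this sum, at 66.6 to 230 CPM over all libraries. The sum thus describes FN1 more than VIM, CD44 or YAP1. PRRX1 was at 6 reads or fewer in every library. The part of these genes in the level of HBEGF was not tested.

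The noradrenergic neuroblast markers were lower after co-treatment as a sum. Of 8 tested there, 0 passed (4 at an unadjusted p under 0.05, where 8.15% of all genes were), and all 8 had a log2FC below 0, with a median of -0.45 against 0.00 over all genes. Their summed level was 3716 to 4036 CPM in the co-treatment controls and 2764 to 3400 CPM in treated cultures, without overlap. Over 5 pre-treatment libraries, 3 of 8 fell and 2 rose, where 12.8% and 13.2% of all genes did. Those that fell were GATA3 (log2FC -1.44, adjusted p = 0.0126 in edgeR's quasi-likelihood test) and PHOX2A (-0.73, adjusted p = 0.0230), both transcription factors of sympathetic neurons, and DBH (-1.72, adjusted p = 0.0259), the enzyme that makes noradrenaline. STMN2, a microtubule regulator of growing neurites (log2FC 0.83, adjusted p = 0.00612), and ISL1, a transcription factor of the same lineage (log2FC 0.37, adjusted p = 0.0489), rose. Without control replicate 2, none of the 3 that fell was called (adjusted p from 0.0890 to 0.273), and PHOX2A and DBH were also not without treated replicate 1 (0.0545 and 0.0639), nor DBH without treated replicate 2 (0.0708) or by DESeq2 (0.0519). ISL1, close to the threshold, lost its call on leaving out any library (0.0661 to 0.199) and by edgeR's exact test, DESeq2, RLE factors, library size alone, both other filters and 1 fit over both experiments (0.0510 to 0.397). Over 6 libraries 0 of the 8 passed (2 at an unadjusted p under 0.05). The summed level overlapped in the pre-treatment experiment, with 2690 to 3738 CPM in the controls and 2880 to 3532 CPM in treated cultures. In the interaction, STMN2 (0.82 on the log2 scale), HAND2 (0.75) and VIM (1.44) were called. Between the control groups, HAND2 (-0.55), VIM (-1.05), TNC (0.88) and the monocyte marker CD14 (1.70) were called, and with pre-treatment control replicate 3 added none of these 7 calls held (adjusted p of at least 0.381). Without co-treatment control replicate 2, STMN2 (0.0606) and HAND2 (0.0761) were not called in the interaction. HAND2, VIM, TNC and CD14 were then not called between the control groups (0.0572 to 0.115). Of 20 alternatives to the interaction, HAND2 lost its call in 12, STMN2 in 8 and VIM in 2. Of 16 alternatives between the control groups, HAND2 lost its call in 8, and VIM, TNC and CD14 in 6 each. CD14, at 6 to 68 reads a library, was the 1 blood or endothelial marker that fell over 5 pre-treatment libraries (log2FC -1.15, adjusted p = 0.0300), and it was not called on leaving out any library but treated replicate 3 (0.0634 to 0.182). No Schwann marker passed in any of the 5 comparisons by edgeR's quasi-likelihood test, with 0 to 2 of 5 at an unadjusted p under 0.05. The part of these markers in the values of the ERBB family was not tested.

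Of the other ligands of the family (EGF, BTC, EPGN, NRG3, NRG4 and AREGB), 2 had enough reads to be tested. NRG3, a ligand of ERBB4, had a log2FC of 0.20 (SE 0.29) after co-treatment and 0.97 (SE 0.41) over 5 pre-treatment libraries, and NRG4, another ligand of ERBB4, 0.23 (SE 0.23) and 0.52 (SE 0.22). Neither passed in either experiment, with adjusted p-values of at least 0.112 in edgeR's quasi-likelihood test, though NRG3 passed over 5 pre-treatment libraries without a filter (adjusted p = 0.0245) and without control replicate 1 (log2FC 1.81, adjusted p = 0.0334). Of 8 genes of ligand shedding, 0 passed after co-treatment. ADAM17, the main sheddase of HBEGF and TGFA, stood at 101 to 141 CPM in all libraries, with a log2FC of -0.12 (SE 0.11, adjusted p = 0.874) after co-treatment and 0.27 (SE 0.11, adjusted p = 0.112) over 5 pre-treatment libraries. Over 5 pre-treatment libraries, 2 of the 8 fell, where 12.8% of all genes did, and over 6 libraries 0 passed. The 2 were BACE1 (log2FC -0.71, adjusted p = 0.00628), a protease that cuts NRG1, and RHBDF2 (log2FC -0.69, adjusted p = 0.0278), which helps ADAM17 to mature. Without control replicate 2, neither passed (adjusted p = 0.0520 and 0.229), and RHBDF2 also did not on leaving out treated replicate 1 or 2. ADAM9 was the 1 gene of this list past the interaction test, at 0.69 on the log2 scale (adjusted p = 0.0449), and it was lost on leaving out any of 7 libraries (adjusted p-values from 0.0607 to 0.132), with library size alone (0.116) and with pre-treatment control replicate 3 added (0.511).

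Of 13 tested genes listed as inhibitors of ERBB signalling, SPRY1 and SPRY2 fell after co-treatment, where 0.263% of all genes fell, and none of the 13 rose. Sprouty genes code for feedback inhibitors of RAS and ERK that are themselves induced by receptor signalling. SPRY1 had 76.4, 72.5 and 63.6 CPM in the controls and 39.6, 29.1 and 29.8 CPM in treated cultures, and SPRY2 had 20.4, 18.3 and 18.3 CPM and 11.4, 10.7 and 11.8 CPM. Neither gene overlapped between the groups, and the log2FC was -1.11 for SPRY1 (SE 0.15, adjusted p = 0.00505 in edgeR's quasi-likelihood test) and -0.75 for SPRY2 (SE 0.14, adjusted p = 0.0322). Without treated replicate 3, SPRY1 had an adjusted p = 0.0812, and SPRY2 did not pass on leaving out any library but control replicate 1 (0.0514 to 0.225), in a fit over both experiments (0.410) or with library size alone (0.0952). Over 5 pre-treatment libraries, SPRY1 was also lower (log2FC -0.72, SE 0.17, adjusted p = 0.0190) and SPRY2 did not pass (log2FC -0.50, adjusted p = 0.326). SPRY1 was not called there without control replicate 2 (adjusted p = 0.164) or treated replicate 1 (adjusted p = 0.0641), and SPRY2 was called without treated replicate 3 (log2FC -0.99, adjusted p = 0.0172) and without a filter (log2FC -0.53, adjusted p = 0.0172).

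In that comparison, 7 of the 13 listed inhibitors fell and 2 rose, where 12.8% and 13.2% of all genes did. Their median log2FC was -0.72 against 0.01 over all genes. Over all genes, 3489 rose and 3382 fell with TMM scaling, and 1384 rose and 4892 fell with library size alone. The genes with the smallest adjusted p were CBL, the ubiquitin ligase that marks EGFR for degradation (log2FC -1.56, adjusted p = 0.000903), SPRED2 (log2FC -1.69, adjusted p = 0.000924) and SPRY4 (log2FC -1.51, adjusted p = 0.00143), both inhibitors of RAS and ERK signalling, and LRIG2 (log2FC -0.74, adjusted p = 0.00531). LRIG2 was listed together with LRIG1, and its own effect on ERBB signalling was not tested. RNF41 (log2FC 0.67), a ubiquitin ligase of ERBB3, and ERRFI1 (log2FC 0.55), which binds and blocks EGFR, were the 2 that rose. LRIG2 (adjusted p = 0.0549), RNF41 (adjusted p = 0.0562) and ERRFI1 (adjusted p = 0.257) were not called without control replicate 2, and ERRFI1 also not without treated replicate 1 or 2 or with library size alone (log2FC 0.33, adjusted p = 0.188). None of these passed over 6 libraries, where the median of the list was -0.53. CBL had 251, 262 and 92.8 CPM in pre-treatment control replicates 1 to 3 and 73.1, 96.0 and 87.2 CPM in treated cultures, so that replicate 3 lay within the range of the treated libraries. These 4 genes also passed in the comparison of the control groups and in the interaction, both of which share pre-treatment control replicates 1 and 2 with it. CBL was higher in the pre-treatment than in the co-treatment controls (log2FC 1.31, adjusted p = 0.0158), and its interaction was -1.77 (adjusted p = 0.00946). With pre-treatment control replicate 3 added, none of the 4 passed between the controls (adjusted p = 0.692 for each) or in the interaction (0.511 to 0.544). Without pre-treatment control replicate 2, none passed between the controls (0.0683 to 0.119), and CBL alone passed in the interaction. The control call of CBL was also lost without pre-treatment control replicate 1 (0.0733) or co-treatment control replicate 2 (0.0551). The small-RNA share and the reads outside genes differ between the same libraries, and their part in these values was not tested.

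**Figure D4:**
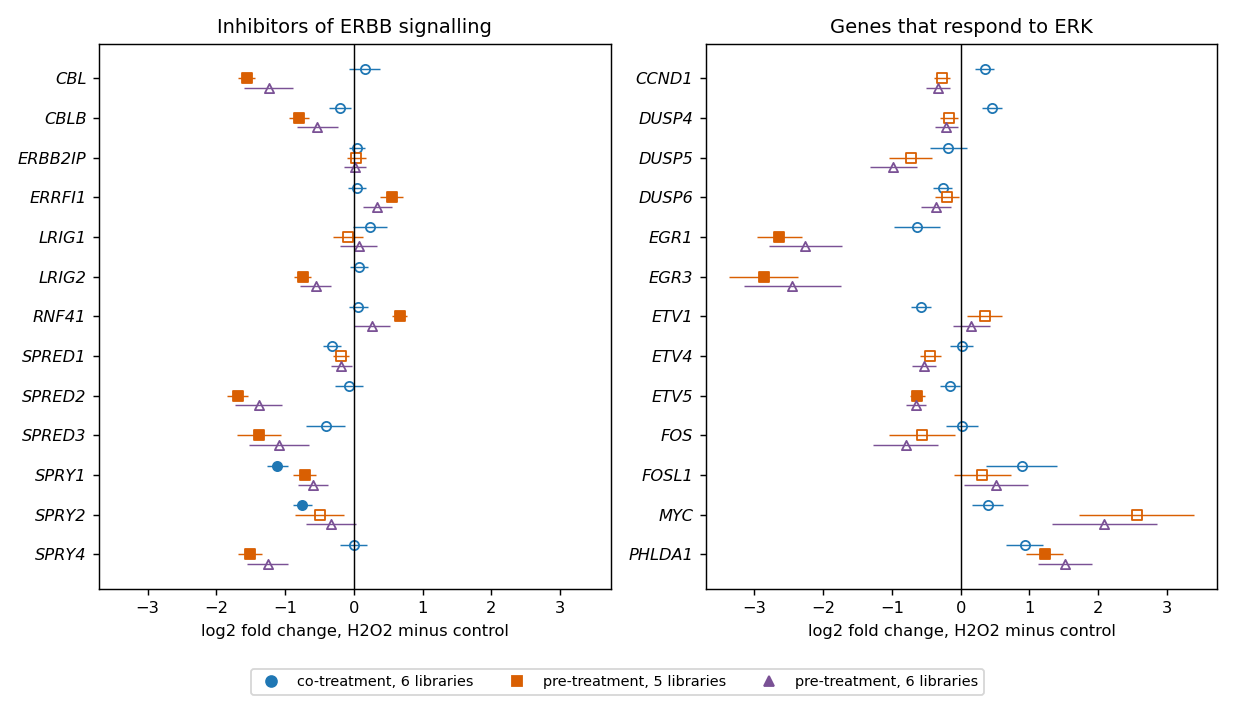
Log2FC of H2O2 over control with its standard error for the 13 tested genes listed as inhibitors of ERBB signalling (left) and 13 genes that respond to ERK (right, EGR3 not tested after co-treatment). Filled symbols passed an adjusted p of 0.05. SPRY1 and SPRY2 are the filled co-treatment circles, 9 inhibitors and 4 ERK-response genes are filled over 5 pre-treatment libraries, and none is filled over 6. Over 5 pre-treatment libraries, 26.1% of all tested genes passed.

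Of 17 tested adaptors and effectors, 0 passed after co-treatment and 0 over 6 pre-treatment libraries. Over 5 pre-treatment libraries, 5 fell and 1 rose, where 12.8% and 13.2% of all genes did. Those with the smallest adjusted p were PIK3CB, a catalytic subunit of PI3-kinase (log2FC -1.38, adjusted p = 0.00123 in edgeR's quasi-likelihood test), SOS1, the exchange factor that loads RAS (log2FC -1.09, adjusted p = 0.00188), and PIK3R2, a regulatory subunit of PI3-kinase (log2FC -0.79, adjusted p = 0.00782). The gene that rose was HRAS (log2FC 0.59, adjusted p = 0.0158). SOS1 had 183, 183 and 61.2 CPM in pre-treatment control replicates 1 to 3 and 71.2, 84.8 and 96.6 CPM in treated cultures, with replicate 3 below the treated libraries. Without control replicate 2, PIK3R2 (adjusted p = 0.0768) and HRAS (adjusted p = 0.0930) no longer passed, and HRAS also did not pass on leaving out control replicate 1 or treated replicate 1 or 2, or with library size alone (adjusted p = 0.0734). PIK3CB and SOS1 were also called in the interaction (-1.42 and -1.16 on the log2 scale) and, with HRAS, between the control groups (1.15, 1.09 and -0.69), and none of these calls held with pre-treatment control replicate 3 added (adjusted p of at least 0.544). Without co-treatment control replicate 2, SOS1 was not called in the interaction (0.0531), nor PIK3CB (0.0556) and HRAS (0.0756) between the control groups.

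Of the genes whose RNA responds to ERK, 12 were tested after co-treatment and 0 passed, with a median log2FC of 0.02. Of the 12, 7 had a log2FC above 0. At an unadjusted p of 0.05, 4 of the 12 passed, where 8.15% of all genes did. PHLDA1 (log2FC 0.93), DUSP4 (0.46) and CCND1 (0.35) were higher among these, and ETV1 (-0.58) was lower. DUSP6, a phosphatase of ERK, had a log2FC of -0.26 (SE 0.13, adjusted p = 0.684 in edgeR's quasi-likelihood test) and EGR1 -0.63 (SE 0.33, adjusted p = 0.695). Over 5 pre-treatment libraries, 13 were tested, of which 3 fell (EGR1 with a log2FC of -2.64, EGR3 with -2.87 and ETV5 with -0.63) and 1 rose (PHLDA1, with 1.22). Over all genes, 12.8% fell and 13.2% rose in this comparison. ETV5 was not called without control replicate 2 (adjusted p = 0.0646), nor PHLDA1 without control replicate 1 or 2 or treated replicate 1 (0.0529 to 0.0711). EGR1, an immediate early transcription factor, had 59.9, 67.3 and 16.9 CPM in the pre-treatment controls and 10.9, 13.9 and 5.25 CPM in treated cultures, and 5.31 to 16.5 CPM in the co-treatment libraries. Its level was thus high in pre-treatment control replicates 1 and 2 and lower in the other 10 libraries, and EGR1 was called between the control groups (log2FC 2.72, adjusted p = 0.00592, and 0.692 with pre-treatment control replicate 3). EGR3 (2.70 on the log2 scale), FOS (0.80) and ETV1 (-0.91) were also called between the control groups, and EGR1 (-2.06) and CCND1 (-0.68) in the interaction. With pre-treatment control replicate 3 added, none of these 5 calls held (adjusted p of at least 0.454). The interaction calls of EGR1 and CCND1 were also lost on leaving out most single libraries, such as co-treatment control replicate 2 (0.0868 and 0.132). Without that replicate, FOS (0.152), EGR3 (0.0531) and ETV1 (0.0510) were not called between the control groups either. Over 6 pre-treatment libraries, 0 of the 13 passed, with 7 at an unadjusted p under 0.05, where 11.2% of all genes were. MYC, at 27.1 CPM in pre-treated replicate 3 and 1.48 to 6.79 CPM in the other 11 libraries, did not pass over 5 pre-treatment libraries (log2FC 2.56, adjusted p = 0.0538). MYC passed on leaving out any treated library (adjusted p from 0.0281 to 0.0375, with a log2FC of 1.07 without replicate 3), by edgeR's exact test (adjusted p = 0.0106), without a filter (3.52e-20) and in 1 fit over both experiments (0.0162).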

How the data were processed

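Total RNA of 12 SH-SY5Y cultures, 4 groups of 3, was depleted of ribosomal RNA and sequenced as paired-end reads by the authors. Per the submitters' processing notes and the methods of the study, FastQC 0.11.8, cutadapt 2.10, HISAT2 2.1.0 on hg19 and HTSeq 0.7.2 were used. The deposited values are raw counts for each library on 55765 gene symbols, unnormalized and unfiltered. The strand setting of the counting and the version of the annotation are not given in the sources used here, so members that overlap a gene on the other strand are named as such. Closing entries for reads not counted on a gene held 40.0% to 59.9% of the reads of a library and were left out of library sizes and tests. The authors' tables of fold changes, p-values and FDR values were not used.

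Groups were taken from the sample labels. TMM factors of edgeR 4.0.16 (R 4.3.3) scaled the counts, and log2 CPM took a prior count of 2. A gene was tested if the CPM that 5 counts give in the smallest library was reached in a number of libraries at least equal to the smaller group. The quasi-likelihood test was applied to co-treatment (6 libraries), pre-treatment (5 or 6), the interaction (11) and the control groups (5), with p-values adjusted by the Benjamini-Hochberg method over all genes tested and genes called under 0.05. Only the libraries of a comparison entered its fit. The code was tested on simulated data. No 2 replicates matched within sampling noise (chi-square over degrees of freedom of 24.8 to 545), and nothing says that they were grown separately, so p-values measure the spread between these libraries, which may be technical.

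Gene positions on hg19 and exon lengths come from a GENCODE annotation lifted to that build, and promoters from RefSeq (GRCh38.p14). The 10 members and the lists of pathway and marker genes were chosen with earlier results of these data known. All members are named, along with up to 4 genes per list and comparison with the smallest adjusted p among those called and the 5 genes most correlated with HBEGF, of which 1 is not reported here, nor is 1 gene of the mesenchymal list. Other genes were named for their role or to complete a count or sum, after their values were seen. These were SPRY1, SPRY2, ERRFI1, RNF41 and ISL1 over 5 libraries, and EGR1, PHLDA1, DUSP4, CCND1 and ETV1 after co-treatment. ADAM17, DUSP6, MYC, FN1, NRG3 and NRG4 were also named in this way. Alternatives were edgeR's exact test, DESeq2 1.42.0, limma-voom (limma 3.58.1), RLE factors, library size alone, no filter, filterByExpr, fold thresholds, a replicate block, 1 fit over both experiments and each library left out.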

Additional observations from a re-analysis of the deposited data

How the results depend on the processing

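The log2FC of HBEGF kept its direction in both experiments under every alternative tried, from 1.13 to 1.42 after co-treatment, 1.24 to 1.66 after pre-treatment over 5 libraries and 1.12 to 1.47 over 6, while its difference between the experiments, which has no test, lay between -0.036 and 0.36. None of the 7 other tested members was called after co-treatment, over 6 pre-treatment libraries or in the interaction under any alternative, and over 5 pre-treatment libraries 0 to 1 was called on leaving out a library (ERBB4, without control replicate 1). Between the control groups, 1 member was called (ERBB4), but 0 with library size alone, 0 with pre-treatment control replicate 3 and 2 without a filter (EGFR and ERBB4), and 0 to 2 on leaving out a library, with 2 without co-treatment control replicate 1. The numbers of replicates are not stated to pair cultures, and libraries with the same number did not deviate together (r of -0.0733 to -0.0626 for co-treatment, -0.279 to 0.0295 for pre-treatment). With a replicate block, 0 members were called between the control groups (ERBB4 at an adjusted p of 0.0521 in edgeR's quasi-likelihood test) and the block changed the call of no other member, while for genes of the other lists it ended the calls of VIM over 6 pre-treatment libraries (adjusted p = 0.491), of ADAM9 (0.0939), CCND1, STMN2 and HAND2 in the interaction and of LRIG2 (0.0712), HRAS, HAND2, TNC and CD14 between controls, and it called ADAM17 (0.00926), NRG3 (0.00610), SPRY2 (6.11e-05) and MYC (0.000589) over 5 pre-treatment libraries. Of 580 alternative values of the log2FC of the members other than HBEGF, 524 kept direction and call and 46 changed direction, all of members that were not called, and their cause was not tested. Library size alone moved the median log2FC of all genes to -0.23 in the interaction and 0.23 between controls, and the split of all calls after co-treatment from 74 higher and 58 lower to 57 and 23. With it, the log2FC was 0.025 for ERBB2 after co-treatment, -0.031 for EGFR over 5 pre-treatment libraries, -0.025 for TGFA and -0.090 for NRG2 in the interaction, and 0.084 for TGFA, 0.096 for ERBB2 and 0.13 for ERBB3 between controls. With pre-treatment control replicate 3, it was -0.12 for TGFA and 0.099 for NRG1 in the interaction and 0.19 for TGFA and 0.015 for ERBB2 between controls, and with the replicate block 0.17 for TGFA between controls. Leaving out each library in turn after co-treatment gave -0.43 to 0.43 for TGFA and -0.13 to 0.049 for ERBB2, and -0.027 to 0.42 for NRG3 and -0.0033 to 0.37 for NRG4, which are no members. Over 5 pre-treatment libraries it gave -0.18 to 1.06 for TGFA, -0.67 to 0.014 for NRG1, -0.20 to 0.77 for EGFR and -0.71 to 0.072 for ERBB3, and over 6 libraries -0.49 to 0.32 for TGFA, -0.38 to 0.18 for NRG1 and -0.38 to 0.26 for ERBB3. In the interaction it gave -0.27 to 1.00 for TGFA, -0.37 to 0.33 for NRG1, -0.037 to 0.27 for NRG2, -0.20 to 0.052 for ERBB2 and -0.054 to 0.84 for ERBB3, and between controls -0.87 to 0.38 for TGFA and -0.52 to 0.27 for ERBB3. A lone control left by such a fit is assumed to vary like the other group. The depth limits TGFA, ERBB3 and ERBB4, which had 4, 18 and 13 reads in their lowest libraries.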
